A study of Mus musculus with 4 samples.

Results

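The ErbB receptor family and its ligands were followed in 4T1 cells, a line established from a mouse mammary carcinoma, with and without disruption of CD95. The genes were taken by symbol: the receptors Egfr, Erbb2 and Erbb3 and the ligands Areg, Ereg, Hbegf, Tgfa, Btc, Epgn and Nrg1. All 10 were found among the 24411 genes that each library lists. The data were poly(A) RNA-seq values in TPM (a gene's share of the transcripts of a library, corrected for transcript length, with the same sum in every library) from 2 control libraries and 2 libraries labelled CD95ko. All libraries came from 4T1 cells grown in RPMI medium with fetal bovine serum. The CD95ko cells carry lentiCas9-Blast, were selected with blasticidin, received guide RNAs for a deletion of exon 9 of the CD95 gene (symbol Fas), and were sorted as single cells, so each CD95ko library stands for 1 clone. The protocols name an untransduced control and a Cas9-expressing line, vCas9, but the titles of the control libraries do not say which is which. Cas9 and the selection therefore cannot be told apart from the other differences between the controls. The guide RNAs and the single-cell sorting are described above for the CD95ko cells and for neither control. An untransduced control also lacks Cas9 and the selection. In the group differences below, none of these can be told apart from the disruption of CD95. The p-values measure only the spread between these 4 libraries.

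ErbB receptors are tyrosine kinases at the cell surface that pair with each other once a ligand is bound. Amphiregulin (Areg), epiregulin (Ereg), heparin-binding EGF-like growth factor (Hbegf), transforming growth factor alpha (Tgfa), betacellulin (Btc) and epigen (Epgn) bind EGFR, and some of them also bind ErbB4, whereas neuregulin 1 (Nrg1) binds ErbB3 and ErbB4. ErbB2 has no known soluble ligand of its own, and ErbB3 has a weak kinase and signals mainly through its partners, of which ErbB2 is the best known. The ligands are made as membrane proteins and most are released by metalloproteinases, and the receptors act through adaptors, RAS and ERK kinases, and PI3K and AKT. In the mammary gland Areg is known as the ligand through which oestrogen drives duct growth, and amplification of the locus of ERBB2 defines a class of human breast cancer.

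The targeted gene, Fas, was at 49.4 and 39.2 TPM in controls 1 and 2, at 15.8 TPM in the library labelled CD95ko 1 and at 49.5 TPM in the library labelled CD95ko 2. The second clone held about as much Fas transcript as control 1, so every direction below refers to the libraries as labelled. A TPM of the whole gene does not show the state of the deleted exon. The labelled cell type was checked on 7 epithelial markers, all of which were above 0 in all libraries, with a summed level of 4712 and 4671 TPM in the controls and 8265 and 12496 TPM in the libraries labelled CD95ko. Of these markers 5 had an unadjusted limma p under 0.05, all higher in the libraries labelled CD95ko, where 9.25% of all tested genes had such a p, and none passed an adjusted p of 0.05. Cdh1 did not reach that p at a difference of 0.54 on the log2(TPM + 1) scale, and Cldn7 lay in the other direction at -0.48 with overlapping groups. All 5 leukocyte and all 3 endothelial markers were listed at 0 in every library, 4 fibroblast markers together reached 0.97 to 4.52 TPM, and 3 neuronal or Schwann cell markers 0 to 3.89 TPM. Bulk values of this kind cannot tell fewer cells of a type from less RNA per cell.

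Erbb2 and Erbb3 were higher, and Hbegf lower, in both libraries labelled CD95ko than in both controls, each by more than 2-fold on the log2(TPM + 1) scale in all 4 pairings of a CD95ko library with a control. Areg, the second ligand by level, was high in one of these clones and low in the other. Of the 10 genes, 8 passed the filter on low values (2 or more libraries at or above 1 TPM), and Ereg and Epgn did not. None of the 8 passed an adjusted p of 0.05 in limma fitted over all 11167 tested genes, where 0.0537% of genes did. Without adjustment, limma gave a p under 0.05 for 3 of the 8 in the higher direction (Erbb2, Erbb3 and Btc), against 9.25% of all tested genes. It did so for 1 of the 8 in the lower direction (Hbegf), against 5.68%.

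The groups did not overlap for 5 of the 8 genes with the CD95ko values higher (Erbb2, Erbb3, Egfr, Tgfa and Btc), where 29.2% of all tested genes did the same. They did not overlap for Hbegf with the CD95ko values lower, where 18.3% of tested genes did. Differences over 2-fold in all 4 pairings were found for 2 of the 8 upward (Erbb2 and Erbb3), against 3.53% of tested genes, and for 1 of the 8 downward (Hbegf), against 1.96%. The median difference over the 8 genes was 0.62 on the log2(TPM + 1) scale, beside 0.13 over all tested genes, but the 8 ran from -1.91 to 2.53 and differed in sign. Since the genes were chosen with earlier results of these libraries known, these counts are descriptions.

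**Figure D1:**
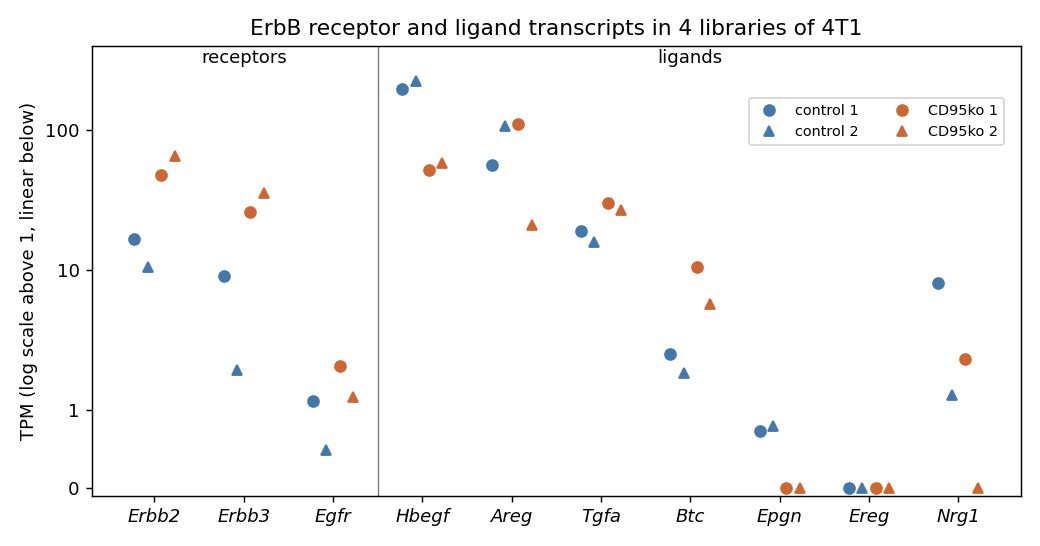
TPM (vertical axis, log scale above 1 and linear below) of the 3 receptors and 7 ligands in each of the 4 libraries, 1 point per library, circles for replicate 1 and triangles for replicate 2, with no error bars. The CD95ko points of Erbb2 and Erbb3 lie above both controls, those of Hbegf lie below both controls, and those of Areg lie on either side of control 1.

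Erbb2, the receptor also called HER2 or Neu, occupies positions 98412470 to 98437716 of chromosome 11, forward strand (GENCODE M21, GRCm38), with 3 annotated transcripts. It was listed at 16.7 TPM in control 1, 10.6 TPM in control 2, 48.1 TPM in the library labelled CD95ko 1 and 64.9 TPM in the library labelled CD95ko 2. The groups did not overlap, and the lower CD95ko value was well above the higher control. The means were 13.6 ± 4.31 and 56.5 ± 11.9 TPM (SD, n = 2 each), a 4.15-fold ratio. The difference was 1.99 ± 0.43 SE on the log2(TPM + 1) scale, with a limma adjusted p of 0.136 (unadjusted 0.00134). Its 95% interval in that model ran from 1.01 to 2.98. Within a library, Erbb2 stood above 41.8% and 39.1% of the tested genes in the controls and above 71.1% and 78.4% in the libraries labelled CD95ko.

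Erbb3, the partner that carries docking sites for PI3K, occupies positions 128567523 to 128589652 of chromosome 10, reverse strand, with 1 annotated transcript. It was listed at 9.11 and 1.93 TPM in controls 1 and 2, and at 26.1 and 35.8 TPM in the libraries labelled CD95ko 1 and 2. The groups did not overlap, but the controls differed from each other by 1.79 on the log2(TPM + 1) scale, more than the CD95ko libraries did (0.44). The means were 5.52 ± 5.08 and 30.9 ± 6.87 TPM (SD, n = 2 each). The difference was 2.53 ± 0.65 SE on the log2(TPM + 1) scale (limma adjusted p = 0.158, unadjusted 0.00368), with a 95% interval from 1.07 to 4.00. Against control 1 alone the pairings gave 1.42 and 1.86, and against control 2 alone 3.21 and 3.65, so the size of the difference rested on the control used. Left out in turn, control 1 moved it to 3.43 and control 2 to 1.64.

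Of the 7 epithelial markers, 6 were higher in both libraries labelled CD95ko than in both controls, as both receptors were, and Cldn7 was not. Over all tested genes, 29.2% were likewise higher in both clones than in both controls. Epcam was at 178.5 and 165.8 TPM in the controls and at 531.5 and 564.7 TPM in the libraries labelled CD95ko. Krt19 was at 188.6 and 208.9 TPM in the controls and at 751.1 and 858.5 TPM in the clones. Cldn7, a tight junction protein, was at 162.6 and 95.1 TPM in the controls and at 130.9 and 60.0 TPM in the clones. The part of these markers in the values of Erbb2 and Erbb3 was not tested.

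Egfr, the founding receptor of the family, occupies positions 16752203 to 16918158 of chromosome 11, forward strand. An annotated antisense transcript, Egfros, overlaps it over 15272 bases, and whether reads were counted by strand is not given in the sources used here. It was close to the lower end of what the libraries list: 1.17 and 0.49 TPM in controls 1 and 2, 2.07 and 1.24 TPM in the libraries labelled CD95ko 1 and 2. Both CD95ko values were above both controls, by a margin of 0.05 on the log2(TPM + 1) scale for the closest pair. The difference of 0.54 ± 0.69 SE (limma adjusted p = 0.748) was smaller than its limma error, and its 95% interval from -1.01 to 2.10 spans both directions. That error is drawn partly from the spread of other tested genes. Egfr itself differed by -0.54 from control 1 to control 2 and by -0.45 from the first clone to the second. Egfr stood above 3.54% to 7.93% of the tested genes, so that Erbb2 outnumbered it per length by 14.2-fold and 21.5-fold in the controls and by 23.2-fold and 52.3-fold in the libraries labelled CD95ko. The sequenced depth is unknown from TPM, and at these levels a value may rest on few reads.

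Promoters of a receptor and a ligand are shown because their genes behaved differently: Erbb2 was higher in both clones, while Areg split the clones. They are the 250 bases before the RefSeq start site (GRCm38.p6), chr11:98412234-98412483 for Erbb2 and chr5:91139349-91139598 for Areg, both on the forward strand, written 5′ to 3′. Capitals mark matches on either strand to 6 motifs. The motif of AP-2 was searched as GCCNNNGGC. The motif of SP factors was searched as GGGCGG, that of AP-1 as TGANTCA and the cAMP response element (CRE) as TGACGTCA. The TATA box was searched as TATAAA, and the motif of ETS factors as CCGGAAG.
Erbb2: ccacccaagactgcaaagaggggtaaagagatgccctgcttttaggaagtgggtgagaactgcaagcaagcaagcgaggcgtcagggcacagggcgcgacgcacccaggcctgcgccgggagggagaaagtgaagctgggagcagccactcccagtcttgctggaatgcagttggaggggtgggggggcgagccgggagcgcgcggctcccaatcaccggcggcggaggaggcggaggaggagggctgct
Areg: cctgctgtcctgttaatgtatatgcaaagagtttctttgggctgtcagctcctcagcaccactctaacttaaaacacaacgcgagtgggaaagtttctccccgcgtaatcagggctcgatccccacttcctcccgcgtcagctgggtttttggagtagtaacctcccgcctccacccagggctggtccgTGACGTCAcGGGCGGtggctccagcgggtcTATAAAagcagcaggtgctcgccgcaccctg
The window of Erbb2, 66.0% G and C, held no match to any of the 6 motifs. The window of Areg, 57.2% G and C, held a CRE whose first base lies 61 bases before the start, an SP match at 52 bases and a TATA match at 31 bases, none of them overlapping. Over all 32851 promoter windows of the same length, 1.55% held the CRE, 32.7% the SP motif and 12.4% the TATA motif. The AP-2, AP-1 and ETS motifs were in 13.7%, 6.75% and 6.91% of them. A match is a string of letters and says nothing of binding. Promoter entries were matched for 6 of the 10 genes (Egfr, Erbb2, Areg, Tgfa, Btc and Epgn). Of those not shown, Tgfa held 2 AP-2 and 2 SP matches, Egfr 1 SP and 1 ETS match, Epgn 1 TATA match, and Btc none. Any part of the matches in the values of these genes was not tested.

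Erbb2 has close neighbours that in human tumours are often amplified with it, and their values are given side by side, chosen after the values of Erbb2 and Grb7 had been seen. Within 200 kb of its start site 5 other tested genes start. Grb7, an adaptor that binds ErbB2 and starts 33.9 kb downstream, was at 24.8 and 22.8 TPM in the controls and at 95.8 and 113 TPM in the libraries labelled CD95ko. It differed by 2.09 ± 0.35 SE on the log2(TPM + 1) scale (limma adjusted p = 0.0676). Stard3, a cholesterol transporter of late endosomes, was at 31.2 and 11.0 TPM in the controls and at 36.6 and 84.6 TPM in the libraries labelled CD95ko. Both were higher in each clone than in either control, although the first clone exceeded control 1 only narrowly for Stard3 (group difference 1.53 ± 0.58 SE, limma adjusted p = 0.273). That difference was 2.24 without control 1, 0.82 without control 2, 2.13 without the library labelled CD95ko 1 and 0.94 without the library labelled CD95ko 2.

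Pgap3, which remodels lipid anchors of proteins, differed by 1.24 ± 0.59 SE at 2.19 to 8.60 TPM (limma adjusted p = 0.37). Mien1 starts 26.5 kb away on the opposite strand and shares 9 bases with the end of Erbb2. It differed by 0.52 ± 0.36 SE (limma adjusted p = 0.535), with 68.9 and 46.2 TPM in the controls and 73.5 and 90.0 TPM in the libraries labelled CD95ko. Ormdl3, 174.9 kb away, a regulator of sphingolipid synthesis, lay in the other direction at -0.82 ± 0.41 SE (limma adjusted p = 0.389). Like Grb7 and Stard3, Pgap3 and Mien1 were higher in each clone than in either control, as were 29.2% of all tested genes. Ormdl3 was lower in each clone than in either control, as were 18.3% of all tested genes. The group differences of these 5 neighbours thus ran from -0.82 to 2.09, and those of Erbb2 and Grb7 were alike in size while that of Mien1, which lies between them, was smaller. The copy number of this stretch, and any part of it in these values, was not tested.

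**Figure D2:**
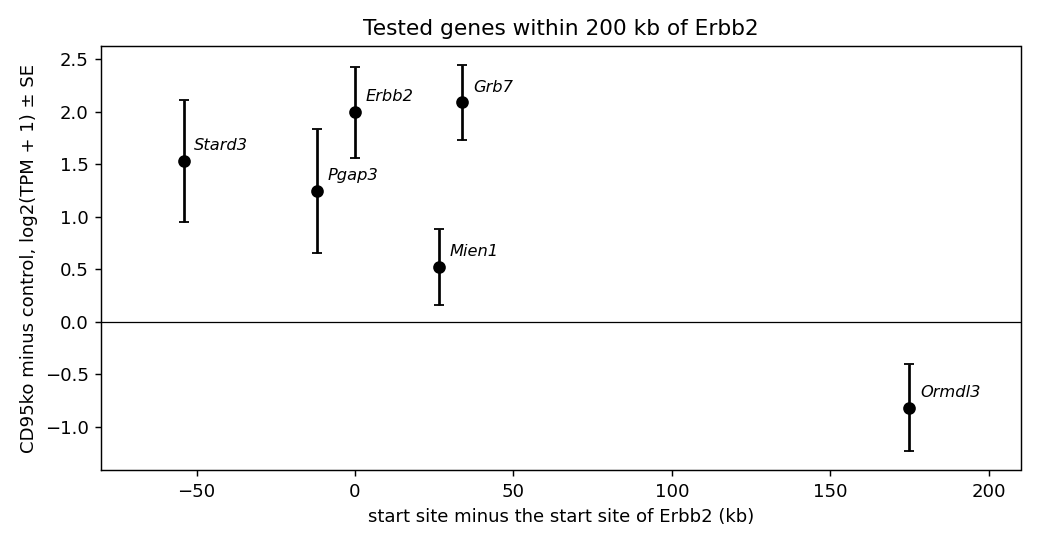
Group difference (CD95ko minus control, log2(TPM + 1), points with limma SE, 2 libraries per group) of the tested genes within 200 kb of Erbb2, against the distance of their start sites from that of Erbb2 in kb. Erbb2 (1.99) and Grb7 (2.09) are highest, Mien1 between them is at 0.52, and Ormdl3 is below 0.

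Hbegf, whose membrane-bound precursor is also the receptor of diphtheria toxin, was the most abundant of the 10 transcripts in both controls. The gene occupies positions 36504927 to 36515805 of chromosome 18, reverse strand. It was listed at 195.7 and 224.2 TPM in controls 1 and 2, and at 52.1 and 58.0 TPM in the libraries labelled CD95ko 1 and 2. The groups were far apart and the libraries within each were close. The means were 209.98 ± 20.1 and 55.0 ± 4.17 TPM (SD, n = 2 each), which puts the controls 3.82-fold higher. The 4 pairings ranged from -2.09 to -1.74 on the log2(TPM + 1) scale, and the group difference was -1.91 ± 0.31 SE with a 95% interval from -2.62 to -1.20. With a limma adjusted p of 0.0676 (unadjusted 0.000194), Hbegf had the smallest p of the 8 tested genes but did not pass the threshold. Robust eBayes brought it past (limma adjusted p = 0.0357), as did leaving out the library labelled CD95ko 1 (0.00363) or CD95ko 2 (0.00361), where the lone clone is assumed to vary like the controls. Over all alternatives its adjusted p ran from 0.00361 to 0.875, and its difference stayed between -2.01 and -1.81.

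Areg was the second ligand in both controls and differed most between the clones. It was listed at 56.4 and 107 TPM in controls 1 and 2, at 110 TPM in the library labelled CD95ko 1 and at 21.0 TPM in the library labelled CD95ko 2. The first clone lay level with the higher control and the second below both, so the groups overlapped. The means were 81.7 ± 35.8 and 65.7 ± 63.3 TPM (SD, n = 2 each), and the difference of -0.67 ± 0.69 SE (limma adjusted p = 0.682) was smaller than its error. Its direction rested on single clones: without the library labelled CD95ko 2 the difference was 0.50, and without the library labelled CD95ko 1 it was -1.84. The 2 clones were 2.34 apart on the log2(TPM + 1) scale, against an SD of 1.04 over all tested genes for the same pair, and the controls were 0.91 apart, against an SD of 0.66.

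Tgfa, an EGFR ligand made by many carcinomas, occupies positions 86195223 to 86275719 of chromosome 6, forward strand. It was listed at 19.0 and 15.9 TPM in controls 1 and 2, and at 30.3 and 27.0 TPM in the libraries labelled CD95ko 1 and 2. The groups did not overlap, with a ratio of the means of 1.64. The difference of 0.69 ± 0.42 SE (limma adjusted p = 0.474, 95% interval -0.27 to 1.64) did not pass the threshold with or without adjustment. Relative to the median of all tested genes it was 0.56.

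Btc, which binds both EGFR and ErbB4, was listed at 2.5 and 1.83 TPM in controls 1 and 2, and at 10.5 and 5.77 TPM in the libraries labelled CD95ko 1 and 2. Both clones exceeded both controls, the first more than the second. The means were 2.17 ± 0.47 and 8.13 ± 3.34 TPM (SD, n = 2 each), a 3.76-fold ratio, and the difference was 1.49 ± 0.61 SE (limma adjusted p = 0.3, unadjusted 0.0374) on a scale that understates the change of weakly expressed genes.

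The remaining ligands were weak. Epgn was listed at 0.73 and 0.80 TPM in the controls and at 0 in both libraries labelled CD95ko, and Ereg was listed at 0 in all 4 libraries, so neither was tested and no fold is given. Nrg1, the ErbB3 ligand, spans 1069 kb of chromosome 8 with 18 annotated transcripts, which the gene-level value does not separate. It was listed at 8.15 and 1.28 TPM in controls 1 and 2, at 2.31 TPM in the library labelled CD95ko 1 and at 0 in the library labelled CD95ko 2. The groups overlapped, and the difference of -1.33 ± 0.90 SE (limma adjusted p = 0.517) was smaller than the gap between the controls (2.00). It was -0.33 without control 1, -2.33 without control 2, -2.19 without the library labelled CD95ko 1 and -0.46 without the library labelled CD95ko 2. Erbb3, its receptor, was thus higher in both clones while the level of Nrg1 in them was 2.31 TPM and 0.

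**Figure D3:**
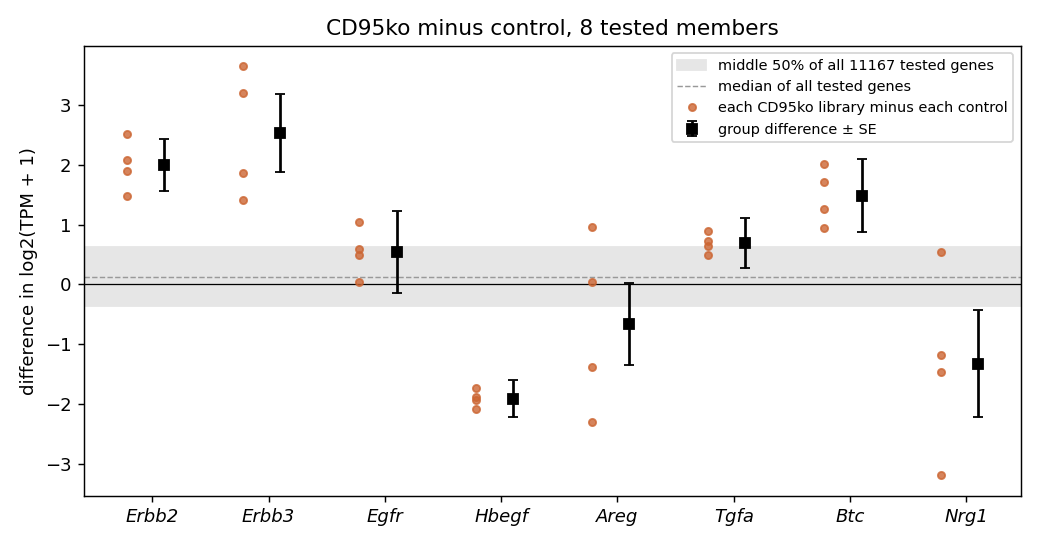
Difference in log2(TPM + 1), CD95ko minus control, of the 8 tested receptors and ligands: small points are the 4 pairings of a CD95ko library with a control, squares the group difference with its limma SE, and the grey band the middle 50% of all 11167 tested genes with their median dashed. The pairings of Erbb2, Erbb3, Btc and Hbegf each stay on one side of the band, while those of Areg and Nrg1 fall on both sides of 0.

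A scaling that forces all libraries to 1 distribution (quantile normalization) moved the median difference of all tested genes from 0.13 to 0.002, so values were also read relative to that median. Set against it, Erbb3 lay at 2.41, Erbb2 at 1.87, Btc at 1.36, Tgfa at 0.56, Egfr at 0.42, Areg at -0.80, Nrg1 at -1.46 and Hbegf at -2.04. Under quantile normalization itself, Erbb2 was at 1.84, Erbb3 at 2.34 and Hbegf at -1.92, and all 8 genes had the direction given above.

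Epgn, Ereg, Areg and Btc sit together on chromosome 5 within 375.5 kb, in that order. Areg runs from 91139599 to 91148432 on the forward strand and Btc from 91357261 to 91402994 on the reverse strand. These neighbours did not share a pattern. Ereg, from 91074622 to 91093646, was listed at 0 throughout, and Epgn, from 91027464 to 91035215, was above 0 in the controls alone. Areg reached 110 TPM in the clone in which Btc was also highest (10.5 TPM), but in the second clone Areg was the lowest of the 4 libraries (21.0 TPM) while Btc (5.77 TPM) was above both controls.

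Taken as a pool, the 6 EGFR ligands summed to 274.3 and 349.8 TPM in the controls and to 203.3 and 111.7 TPM in the libraries labelled CD95ko. Both clones lay below both controls, with a mean ratio of 0.505 that ran from 0.358 to 0.651 when 1 library was left out. Hbegf made up 71.4% and 64.1% of this pool in the controls, 25.6% in the first clone, where Areg held 54.3%, and 51.9% in the second. Tgfa held 6.91% and 4.55% in the controls and 14.9% and 24.2% in the clones, and Btc 0.911% and 0.523% in the controls and 5.16% in each clone. The 3 receptors summed to 26.9 and 13.0 TPM in the controls and to 76.2 and 101.9 TPM in the clones, a mean ratio of 4.46. That ratio was 6.87 without control 1 and 3.31 without control 2. Egfr made up 4.34% and 3.78% of the receptor sum in the controls and 2.72% and 1.22% in the clones. The rest was Erbb2 and Erbb3. EGFR ligand transcripts outnumbered those of the 3 receptors together by 10.2-fold and 27.0-fold in the controls and by 2.67-fold and 1.10-fold in the clones. These fold values thus do not set the ligands against Egfr alone. These are sums of transcripts per length, with 2 libraries per group and no test.

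**Figure D4:**
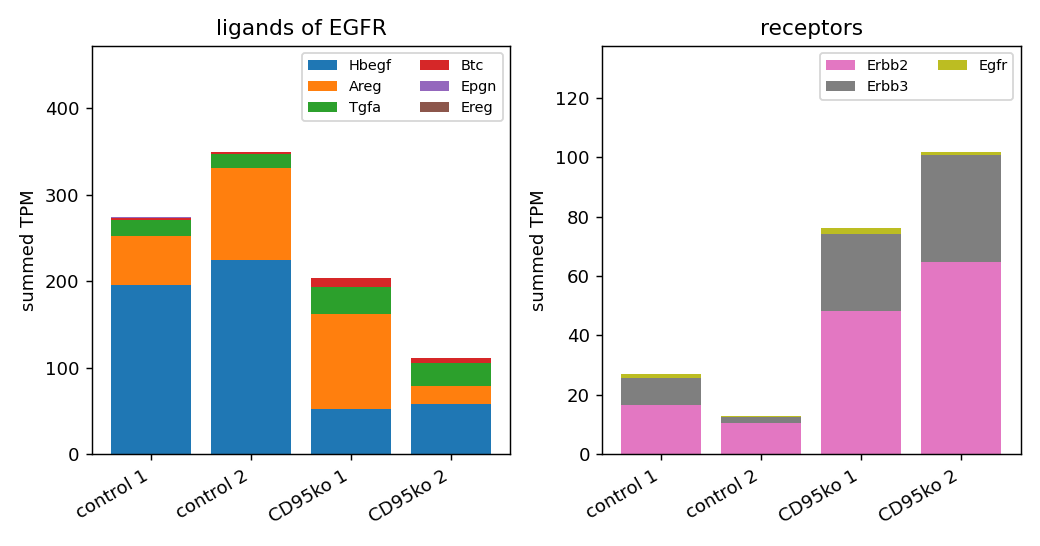
Summed TPM of the 6 ligands of EGFR (left) and of the 3 receptors (right) in each library, stacked by gene, with 1 bar per library and separate vertical axes from 0. The ligand bars of the controls reach 274.3 and 349.8 TPM, mostly Hbegf, and the receptor bars of the clones reach 76.2 and 101.9 TPM, mostly Erbb2.

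The order of the transcripts changed with the group. In the controls it ran Hbegf, Areg, Tgfa, Erbb2 and Erbb3, followed by Nrg1, Btc, Egfr, Epgn and Ereg by mean TPM. The ranges of Tgfa and Erbb2, of Erbb3 and Nrg1, of Nrg1 and Btc, and of Egfr and Epgn overlapped, so these neighbours in the order were not separated. In the libraries labelled CD95ko, Areg spanned 21.0 to 110 TPM, and this range took in or overlapped those of Erbb2, Hbegf, Erbb3 and Tgfa, so Areg had no fixed place among them. The ranges of Erbb2 and Hbegf overlapped, as did those of Erbb3 and Tgfa, and Btc, Egfr and Nrg1 were lower. Erbb2 led the list in the library labelled CD95ko 2, where it was the fourth in both controls. The ratio of Erbb2 to Erbb3 was 1.85 and 1.81 in the 2 clones and 1.83 in control 1, against 5.47 in control 2, where Erbb3 was lowest.

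The remaining machinery was read from 60 other pathway genes in 6 lists, 57 of which were tested. None passed an adjusted p of 0.05 in limma, and 4 had an unadjusted p under 0.05, all higher in the libraries labelled CD95ko (Grb7, Bace1, Pik3r2 and Mapk3), a share below the 9.25% of all tested genes with such a p in that direction. Groups did not overlap for 16 of the 57 in the higher and 8 in the lower direction, where 29.2% and 18.3% of all tested genes did the same. Each of these counts over the 57 genes lies below the background. Differences over 2-fold in all 4 pairings were found for 3 of the 57 upward (Grb7, Bace1 and Pik3r2), a share above the 3.53% of all tested genes. Downward there were 0 of the 57, against 1.96% of all tested genes. The median difference was 0.16 on the log2(TPM + 1) scale, beside 0.13 over all tested genes.

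Of the other receptors and ligands of the family, Erbb4 and Nrg3 were listed at 0 in all libraries and Egf at 0 to 0.81 TPM. Nrg2 was listed at 0 in control 1 and the library labelled CD95ko 2, at 2.33 TPM in control 2 and at 1.12 TPM in the other clone. Nrg4 was between 0.65 and 2.10 TPM in all 4, with overlapping groups. Of the receptors that bind neuregulins, Erbb3 was thus above 0 in these libraries and Erbb4 was not.

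Of 10 genes for ligand shedding, 1 had an unadjusted p under 0.05, about the share of all tested genes (9.25% in the higher direction). Bace1, a membrane aspartyl protease known to cleave neuregulin 1, was at 43.0 and 25.3 TPM in the controls and at 165.95 and 94.98 TPM in the libraries labelled CD95ko (1.90 ± 0.42 SE, limma adjusted p = 0.136). Rhbdf1, an iRhom that carries ADAM17 to the surface, was at 59.2 and 44.4 TPM in the controls and at 71.8 and 118.5 TPM in the clones (0.83 ± 0.38 SE, limma adjusted p = 0.351). Adam17 itself, the main sheddase of Hbegf, Areg and Tgfa, was at 28.8 and 22.6 TPM in the controls and at 40.6 and 26.3 TPM in the clones, with overlapping groups. Adam10 was at 28.95 and 18.26 TPM in the controls and at 41.69 and 42.53 TPM in the clones (0.84 ± 0.41 SE, limma adjusted p = 0.379). The groups did not overlap for 4 of the 10 in the higher direction (Bace1, Rhbdf1, Adam9 and Adam10) and for 0 in the lower. Over all tested genes these shares were 29.2% and 18.3%. The list had a median difference of 0.36.

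Of 15 adaptors, Grb7 alone had an unadjusted p under 0.05 (9.25% of all tested genes in the higher direction). The groups did not overlap for 2 of the 15 in the higher and 4 in the lower direction, beside 29.2% and 18.3% of all tested genes. The most abundant were Src, a kinase that acts with the receptors, at 72.1 to 106.4 TPM, and Grb2, the adaptor to RAS, at 59.8 to 92.0 TPM, and both had overlapping groups. Of 10 RAS and ERK kinases, Mapk3, which encodes ERK1, was at 72.2 and 84.6 TPM in the controls and at 126.2 and 203.7 TPM in the clones (1.03 ± 0.35 SE, limma adjusted p = 0.239). Map2k2, its upstream kinase, was at 100.4 to 152.9 TPM with overlapping groups.

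Of 9 PI3K and AKT genes, Pik3r2, a regulatory subunit of PI3K, was at 34.8 and 24.9 TPM in the controls and at 86.0 and 107.7 TPM in the clones (1.68 ± 0.37 SE, limma adjusted p = 0.136). Akt1 was the most abundant at 225.6 to 335.7 TPM, with both clones above both controls (0.49 ± 0.28 SE, limma adjusted p = 0.444). Akt2 was at 100.5 and 76.5 TPM in the controls and at 64.4 and 75.2 TPM in the clones, with both clones below both controls (-0.33 ± 0.34 SE, limma adjusted p = 0.684). The groups did not overlap for 3 of the 9 in the higher and 2 in the lower direction, beside 29.2% and 18.3% of all tested genes. None of the 11 negative regulators had an unadjusted limma p under 0.05. Over all tested genes, 9.25% had such a p in the higher and 5.68% in the lower direction. Errfi1, which binds and inhibits the receptor kinases, was at 92.8 and 128.3 TPM in the controls and at 101.8 and 113.0 TPM in the clones, and Lrig1, which lowers receptor levels, was at 49.7 to 72.3 TPM, both with overlapping groups.

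**Figure D5:**
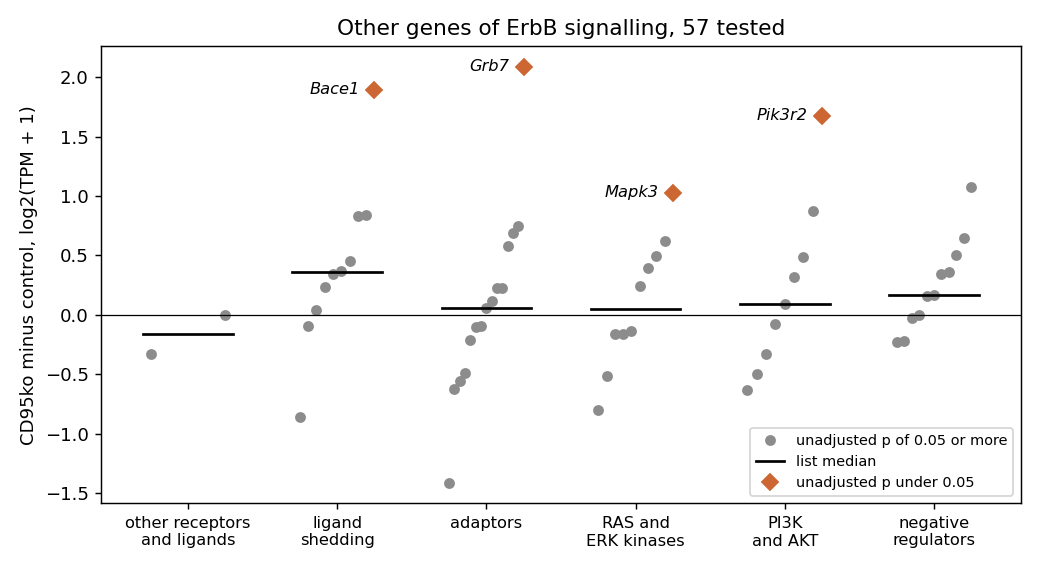
Difference in log2(TPM + 1), CD95ko minus control, of the 57 tested pathway genes in 6 lists, 1 point per gene, with diamonds for an unadjusted limma p under 0.05 and a bar for each list's median. Grb7, Bace1, Pik3r2 and Mapk3 are the diamonds, and the list medians lie between -0.16 and 0.36.

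For each receptor the 3 tested genes with the most similar profile were found by the Euclidean distance between log2(TPM + 1) values over the 4 libraries, each centred on its mean. For Erbb2 these were Ttyh3 (distance 0.154), Mib2 (0.167) and Inpp5k (0.168), with 783 tested genes within a distance of 1. For Erbb3 they were Zfr2 (0.225), Col4a5 (0.297) and Dnajb9 (0.334), with 95 genes within that distance. For Egfr they were Taf6 (0.0143), Etv3 (0.0419) and Stk24 (0.0586), but 5970 of the tested genes lay within a distance of 1 of its flat profile. Over 4 libraries such a likeness is a description only.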

How the data were processed

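Each file held 1 library with 24411 gene symbols and a TPM value, per the file headers. TPM was computed by the authors; the submitters' processing notes name STAR 2.6.0, RSEM 1.3.0 and mm10, and the annotation and settings are not given in the sources used here. TPM carries no read number, so depth is unknown and no counting interval or floor is given. Libraries were grouped by title. The 11167 genes with 2 or more libraries at or above 1 TPM were put on the log2(TPM + 1) scale and tested with limma 3.58.1 (R 4.3.3; lmFit, then eBayes with its trend option). The SE, interval and p of a gene in limma therefore draw partly on the spread of the other tested genes. Tests were two-sided, p was adjusted by Benjamini-Hochberg over these genes, and the threshold was 0.05. An exact permutation test of 2 libraries against 2 cannot go below a two-sided p of 0.333. The script was tested on simulated data.

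The 10 genes and the 6 pathway lists were chosen with earlier results of these data known. Named were all 10, the other receptors and ligands, pathway genes with an unadjusted p under 0.05 or among the 2 most abundant of their list, and the 3 genes nearest to each receptor. Adam9, Adam10, Adam17, Epcam, Krt19, Cdh1, Cldn7 and the neighbours of Erbb2, Erbb3 and Hbegf were added after values had been seen. So were the alternatives for genes outside the 10. Positions came from GENCODE M21 and promoters from RefSeq, both GRCm38, the assembly that mm10 names.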

Additional observations from a re-analysis of the deposited data

How the results depend on the processing

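The number of all genes past an adjusted p of 0.05 in limma, 6, became 0 under 4 settings: a pseudocount of 0.1, no filter, eBayes with no trend, and quantile normalization. Unadjusted p-values under 0.05 numbered 1553, 1636, 1531 and 1862 there, beside 1667 in the reported fit. Robust eBayes gave 52. The number among the 8 tested receptors and ligands was 0, and 1 (Hbegf) with robust eBayes. Among the 57 pathway genes it was 0, and 1 (Grb7) with robust eBayes. When 1 library was left out, these 3 numbers ran from 0 to 1034, from 0 to 4 and from 0 to 3, and each highest value came without the library labelled CD95ko 1, where Erbb2, Erbb3, Areg and Hbegf passed. Such fits take the spread from the 1 group that keeps 2 libraries. Replicate numbers do not pair the libraries (deviations of same-numbered libraries correlated at -0.081 across genes). With the replicate block 2 of all genes passed, and no call among the receptors, ligands and pathway genes changed. All 8 receptors and ligands had the same direction in each setting with 4 libraries. With 1 left out, Areg ran from -1.84 to 0.50 and Fas from -1.42 to 0.16, and the other 7 had the same direction. The cause of these changes was not tested. Depth is unknown, so values near 0 TPM cannot be placed against a detection limit.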

Other observations

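The tested genes starting within 200 kb of Erbb3 and Hbegf were looked at as for Erbb2, after the values of Erbb2 had been seen. Around Erbb3 there were 15 such genes, with a median difference of 0.12 on the log2(TPM + 1) scale. Of these, 3 had an unadjusted limma p under 0.05, 2 of them higher in the libraries labelled CD95ko, and they are named here. Over all tested genes, 9.25% had such a p in the higher and 5.68% in the lower direction. Dgka, a diacylglycerol kinase, was at 17.1 and 9.84 TPM in the controls and at 26.6 and 86.2 TPM in the libraries labelled CD95ko 1 and 2 (1.81 ± 0.59 SE, limma adjusted p = 0.227). Smarcc2, a subunit of the SWI/SNF chromatin remodeller, was at 39.5 and 15.9 TPM in the controls and at 59.0 and 94.7 TPM in those clones (1.53 ± 0.49 SE, limma adjusted p = 0.223). Pa2g4, whose protein is known as the ErbB3-binding protein EBP1 and whose gene is a close neighbour of Erbb3, was at 339.9 and 304.4 TPM in the controls and at 206.4 and 172.3 TPM in the clones. Its difference of -0.77 ± 0.29 SE had a limma adjusted p of 0.273 and was opposite to that of Erbb3. Around Hbegf there were 7 such genes, with differences between -0.25 and 0.99, beside -1.91 for Hbegf itself. None of the 7 had an unadjusted limma p under 0.05, beside 9.25% of all tested genes in the higher and 5.68% in the lower direction.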
